A study of Mus musculus with 2 samples.

Results

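The 110 genes described here encode or assemble the machinery of oxidative phosphorylation, and they were followed through 6 cell classes of mouse kidney glomerular preparations. They are defined by symbol: 13 mitochondrial genes whose symbols start with mt-Nd, mt-Co, mt-Cyt or mt-Atp (the mitochondrial arm), and 97 nuclear entries whose symbols start with Nduf, Sdha to Sdhd, Uqcr, Cox4i, Cox5 to Cox8 or Atp5 (the nuclear arm), out of 31058 features. The symbol Atp5o stands for 2 of the nuclear entries, so that the 97 entries carry 96 symbols. By complex, the nuclear arm holds 36 subunits of complex I, 4 of complex II, 8 of complex III, 20 of complex IV (Ndufa4 and Ndufa4l2 counted there), 17 of complex V and 12 assembly factors (Ndufaf and Sdhaf symbols). The mitochondrial arm holds 7 subunits of complex I, 1 of complex III, 3 of complex IV and 2 of complex V.

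Oxidative phosphorylation couples electron transfer through complexes I to IV of the inner mitochondrial membrane to proton pumping, and ATP synthase (complex V) uses the resulting gradient to make ATP. Complex II is encoded wholly in the nucleus, whereas the other complexes combine nuclear subunits with a few encoded by mitochondrial DNA, which is transcribed as long precursors from both strands and then cut into single transcripts. In the kidney, proximal tubule and thick ascending limb cells reabsorb salt against gradients and are packed with mitochondria, while podocytes, mesangial cells and glomerular endothelial cells carry fewer.

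The animals were healthy C57Bl/6 mice of the genotype Pax2.rtTA;TetO.Cre;R26.Confetti, in which doxycycline, here given at 19 days of age, turns on Cre in cells that express Pax2 and marks them with a Confetti reporter; they were sacrificed at 30 days. Both libraries came from mice with this genotype and induction, so no unmarked or uninduced control enters, and the cell suspension, described as 95% viable, held tubule cells beside glomerular ones. There was 1 library of 10x 3' transcripts for the mouse titled female and 1 for the mouse titled male, with 5233 and 4974 barcodes and 67648465 and 57841860 UMIs (unique molecular identifiers, or single captured transcripts). The cells kept, 5057 and 4720, had at least 500 genes and at most 60% mitochondrial UMIs, and their medians were 10750 and 9778 UMIs. Sex-linked transcripts went against the titles: Xist stood at 0.621 CPM in the library titled female and at 1426 CPM in the library titled male, and the Y-linked genes at 201 and 0.0346 CPM. Where a class has 2 values of 1 measure joined by "and", the library titled female comes first. The libraries shared 10 barcode sequences, 7 of them among kept cells.

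Cell classes came from clusters built without the members, and each was named for its markers. Podocyte-like cells (3225 and 2484) expressed all 12 podocyte markers of the list, thick ascending limb-like cells (114 and 174) all 12 of theirs and endothelial-like cells (196 and 174) all 12. Mesangial-like cells (241 and 175) had 11 of 12 markers, proximal tubule-like cells (40 and 74) 9 and parietal-like cells (180 and 123) 9. The parietal-like cluster also held podocyte transcripts. Summed over the 12 podocyte markers it stood at 25.1% and 19.5% of the podocyte-like level, against 15.4% and 6.84% in mesangial-like, 15.9% and 18.0% in endothelial-like, 9.69% and 5.84% in proximal tubule-like and 13.1% and 7.92% in thick ascending limb-like cells. None of the 12 was at 0 in any class, and the part of such transcripts in the results below was not tested. A further 19.1% and 28.1% of cells lay in clusters without a name, mostly (18.2% and 26.6% of cells) ones with podocyte markers. In the larger of these, haemoglobin genes led.

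Promoter sequences were available for 80 of the 97 nuclear members. They are shown because most tested members of this arm, which is scattered over 19 chromosomes, were higher in each tubule class described below. Whether a motif goes with these differences was not tested. The palindrome made of GCGCA followed directly by its reverse complement TGCGC, a core recognised by nuclear respiratory factor 1 (NRF1), occurred within 250 bases before to 50 bases after a start site in 7 of the 80 genes (8.75%), against 1.07% of 27025 genes in the table. CCGGAAGT, a form of the ETS site bound by GABP, occurred in 5 (6.25%, against 4.31%), and AAGGTCA, the half-site of estrogen-related receptors, in 8 (10.0%, against 5.38%), both strands searched. A match of letters is a description of the window and no more. In the RefSeq promoters below (build GRCm38.p6), the 250 bases before the start site are written 5′ to 3′ on the gene's own strand, and the capitals mark the palindrome. The genes encode a complex IV subunit (Cox6a1, chr5:115348959-115349208, minus strand), ATP synthase subunits (Atp5k, chr5:108434400-108434649, minus strand, and Atp5g2, chr15:102671048-102671297, minus strand) and a complex I subunit (Ndufa11, chr17:56717512-56717761, plus strand).
Cox6a1: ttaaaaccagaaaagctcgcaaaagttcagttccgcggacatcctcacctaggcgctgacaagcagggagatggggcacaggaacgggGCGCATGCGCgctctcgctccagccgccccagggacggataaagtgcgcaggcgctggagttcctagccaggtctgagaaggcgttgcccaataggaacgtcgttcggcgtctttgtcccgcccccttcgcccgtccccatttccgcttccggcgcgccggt
Atp5k: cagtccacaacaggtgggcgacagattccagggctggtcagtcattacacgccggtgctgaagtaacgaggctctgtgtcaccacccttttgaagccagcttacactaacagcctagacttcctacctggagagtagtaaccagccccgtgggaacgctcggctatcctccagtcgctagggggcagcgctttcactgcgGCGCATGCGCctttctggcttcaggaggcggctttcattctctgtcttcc
Atp5g2: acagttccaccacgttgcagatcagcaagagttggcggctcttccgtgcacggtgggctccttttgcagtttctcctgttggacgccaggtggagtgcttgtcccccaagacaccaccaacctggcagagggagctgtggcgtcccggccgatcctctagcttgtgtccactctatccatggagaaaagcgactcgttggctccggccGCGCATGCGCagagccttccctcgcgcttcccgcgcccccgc
Ndufa11: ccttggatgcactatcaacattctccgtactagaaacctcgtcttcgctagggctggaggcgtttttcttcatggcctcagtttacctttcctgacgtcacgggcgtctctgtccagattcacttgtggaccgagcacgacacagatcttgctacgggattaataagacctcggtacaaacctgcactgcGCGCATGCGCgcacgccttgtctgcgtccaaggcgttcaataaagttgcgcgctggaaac
The palindrome began 162 bases before the start site in Cox6a1, 50 in Atp5k, 42 in Atp5g2 and 60 in Ndufa11. These 4 genes did not share a level. Cox6a1 stood at 1246 and 1263 CPM in proximal tubule-like cells against 315 and 347 CPM in podocyte-like cells, whereas Atp5g2, which encodes a form of the membrane ring subunit of ATP synthase, stood at 580 and 591 CPM against 520 and 484 CPM. Here and below, the level of a nuclear gene is given in CPM, with UMIs that are not mitochondrial as the total, summed over the cells of a class and library, and a mitochondrial gene's level is in percent of all UMIs.

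Both arms separated the 2 tubule classes from the 4 glomerular classes, in both libraries and without overlap. The mitochondrial arm made up 27.9% and 29.8% of all UMIs in proximal tubule-like cells and 27.4% and 27.4% in thick ascending limb-like cells. It made up 4.24% and 4.23% in podocyte-like, 5.05% and 4.4% in parietal-like, 4.85% and 4.15% in mesangial-like and 3.60% and 4.04% in endothelial-like cells. Endothelial-like cells were the lowest in both libraries. In these sums parietal-like cells lay above podocyte-like cells in both, and the values of mesangial-like cells overlapped those of both classes. The median cell held 4.26% and 3.85% in the parietal-like class against 3.97% and 3.92% in the podocyte-like class. By that measure the order of these classes turned between the libraries. Distal convoluted tubule-like cells (31.5% and 26.7%) and collecting duct-like cells (29.7% and 29.4%) lay in the range of the other tubule classes or just outside it, and smooth muscle or renin-like cells stood at 5.77% and 6.49%.

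The nuclear arm, in percent of UMIs that are not mitochondrial, had a different leader. Thick ascending limb-like cells were highest at 7.63% and 7.53%, above proximal tubule-like cells at 6.70% and 6.73%. Podocyte-like cells stood at 2.54% and 2.51%, parietal-like at 2.56% and 2.34%, mesangial-like at 2.21% and 1.94% and endothelial-like, the lowest of the 6 in both libraries, at 1.81% and 1.71%. The order of the last 3 was the same in both libraries, while podocyte-like and parietal-like cells overlapped. Distal convoluted tubule-like cells exceeded all 6 classes, at 9.72% and 9.65%. The ratio of mitochondrial to nuclear member UMIs was 1.74 and 1.76 in podocyte-like, 4.94 and 5.02 in thick ascending limb-like and 5.76 and 6.31 in proximal tubule-like cells. In these bulked sums, more transcripts per cell and more cells of a high state cannot be told apart. With 3' UMIs 1 transcript gives 1 count whatever its length, so levels of different genes are given without a length correction.

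**Figure D1:**
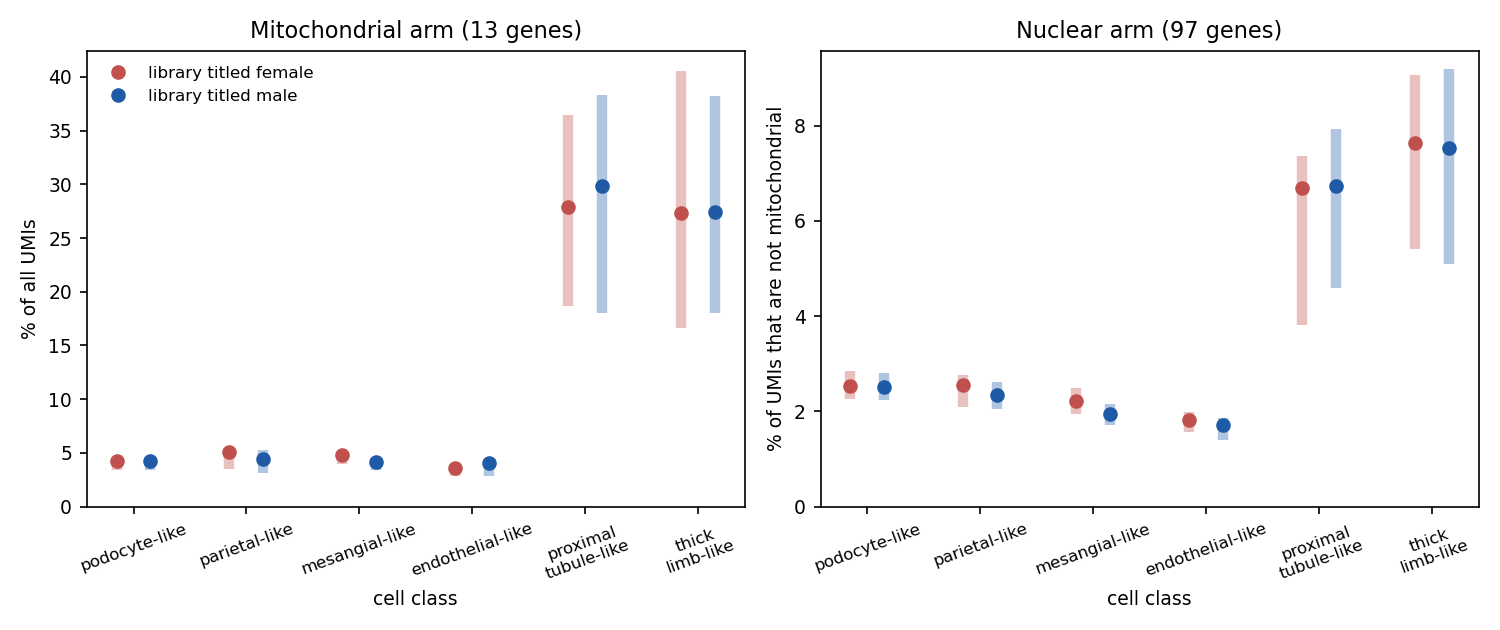
Share of UMIs from the 13 mitochondrial genes (left, percent of all UMIs) and from the 97 nuclear genes (right, percent of UMIs that are not mitochondrial) by cell class and library; points are summed over the cells of a class, and bars span the lower to upper quartile of single cells. In both panels the points of the 2 tubule classes, 27.4% to 29.8% on the left and 6.70% to 7.63% on the right, lie above those of all 4 glomerular classes.

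Each class was then compared with podocyte-like cells, in 1 edgeR quasi-likelihood fit to the summed counts of 6 classes in 2 libraries with the library as a block. Here 102 members (89 nuclear and all 13 mitochondrial) entered with 9211 genes that averaged at least 10 CPM over the 12 sums, and a call needed a Benjamini-Hochberg adjusted p under 0.05 over all of them. The 8 members that did not enter were Cox4i2, Cox6a2, Cox7a1, Cox7b2, Cox8b, Cox8c, Atp5s and 1 entry of Atp5o. Of the tested nuclear members Ndufa4l2 alone lay under 10 CPM in podocyte-like cells, so that its entry rested on another class. Each class has 2 animals behind it, and the block takes up the difference between the 2 libraries. The spread that the test measures is how far differences between classes disagree between the 2 libraries, pooled over the 6 classes. Fold changes are on edgeR's trimmed mean scale.

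Most tested members of the nuclear arm were higher in both tubule classes. In proximal tubule-like cells 84 of the 89 tested nuclear members were higher than in podocyte-like cells and 1 was lower, where 32% of all genes tested were higher and 33.5% lower. The median log2 fold change was 1.57, against -0.09 over all genes. In thick ascending limb-like cells 84 of 89 were higher and 0 lower, with a background of 30.6% higher and 29.9% lower, and the median was 1.47 against -0.02. All 13 mitochondrial members were higher in both tubule classes, with median log2 fold changes of 4.06 in proximal tubule-like and 3.18 in thick ascending limb-like cells. Scaling by total UMIs alone lowered the log2 fold change of the median gene to -0.78 and -0.38 in these classes, and 75 and 77 nuclear members were then called higher and 4 and 2 lower. Relative to the median gene, the nuclear median was 1.66 in proximal tubule-like cells under both scalings. It was 1.49 in thick ascending limb-like cells under each. A change of scaling shifts the log2 fold changes of nearly all genes alike, so this agreement follows from the measure and is no check.

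The tubule cells that carried these values were the cells of high mitochondrial share: 70% and 64.9% of proximal tubule-like and 64.9% and 70.7% of thick ascending limb-like cells had over 20% mitochondrial UMIs, against 0.155% and 0.282% of podocyte-like cells. Proximal tubule-like cells were also the deepest, at medians of 38330.5 and 26885 UMIs against 11009 and 10004.5 in podocyte-like cells. With a limit of 20% the medians of the nuclear arm fell to 1.22 and 1.04 and those of the mitochondrial arm to 2.80 and 1.98, in proximal tubule-like and thick ascending limb-like cells. That limit kept 12 and 26 proximal tubule-like and 40 and 51 thick ascending limb-like cells.

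Within thick ascending limb-like cells the nuclear arm was higher where the mitochondrial share was higher. It stood at 5.82% and 6.31% of UMIs that are not mitochondrial in cells with 10% to 20% mitochondrial UMIs, and at 8.78% and 8.27% in cells with 20% to 40%. In cells with 40% to 60% the libraries parted, at 9.64% in the library titled female and 8.03% in the library titled male. Podocyte-like cells moved little, from 2.51% and 2.5% below 5% mitochondrial UMIs to 2.7% and 2.62% between 5% and 10%. Proximal tubule-like cells held 6.98% and 7.35% between 20% and 40% (20 and 30 cells), and their other ranges held fewer than 20 cells in each library. The nuclear transcript Malat1 moved less evenly over the same thick ascending limb-like cells, at 77216 and 82383 CPM, then 62745.5 and 71416.5 CPM, then 75955 and 86055 CPM. Its part in the result was not tested.

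**Figure D2:**
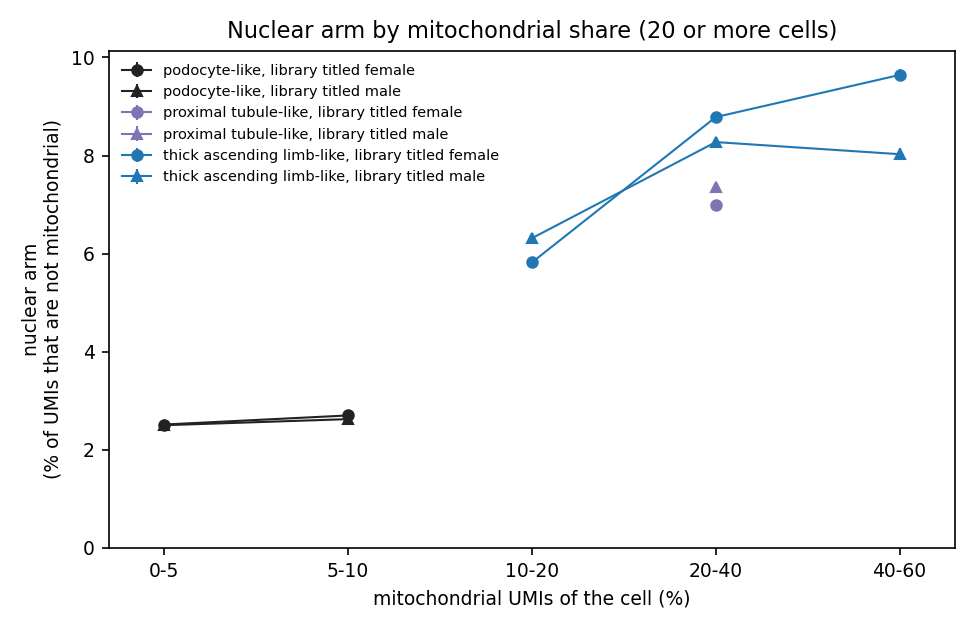
Nuclear arm (percent of UMIs that are not mitochondrial) against the mitochondrial share of the cell (percent of its UMIs, in 5 ranges), for podocyte-like, proximal tubule-like and thick ascending limb-like cells of each library; points sum at least 20 cells, and their counting intervals are smaller than the symbols. Thick ascending limb-like cells go from 5.82% and 6.31% to 9.64% and 8.03%, whereas podocyte-like cells stay between 2.5% and 2.7%.

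Complex I, the NADH dehydrogenase where most electrons enter the chain, was higher in all 36 of its nuclear subunits in both tubule classes, with median log2 fold changes of 1.55 in proximal tubule-like and 1.34 in thick ascending limb-like cells. Ndufb9 (ENSMUSG00000022354, chr15:58933756-58939488, plus strand, GRCm38), an accessory subunit, was among the 4 largest in both. It stood at 282 and 272 CPM in podocyte-like cells, 1581 and 1315 CPM in proximal tubule-like cells and 1475 and 1321 CPM in thick ascending limb-like cells. The log2 fold changes were 2.64 ± 0.10 (SE, n = 2 libraries, edgeR adjusted p = 2.0e-09) and 2.31 ± 0.10 (adjusted p = 7.0e-09). Ndufb4 (ENSMUSG00000022820, chr16:37647170-37654453, minus strand), another accessory subunit, stood at 433 and 495 CPM in podocyte-like cells and at 698 and 726 CPM in proximal tubule-like cells. In thick ascending limb-like cells it was among the 4 smallest of the calls, at 719 and 706 CPM and a log2 fold change of 0.60 ± 0.13. Ndufs5 was among the 4 smallest in proximal tubule-like cells, at 500 and 485 CPM against 413 and 417 CPM (0.51 ± 0.10).

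Complex II, succinate dehydrogenase, also works in the citrate cycle, and all 4 of its subunits were higher in both tubule classes. Sdhb (ENSMUSG00000009863, chr4:140961203-140979193, plus strand), the iron-sulfur subunit, stood at 112 and 114 CPM in podocyte-like cells and at 627 and 573 CPM in proximal tubule-like cells, a log2 fold change of 2.67 ± 0.10 (edgeR adjusted p = 1.69e-09). It stood at 501 and 449 CPM in thick ascending limb-like cells. The flavoprotein subunit Sdha stood at 142 and 144 CPM in podocyte-like cells, at 358 and 348 CPM in proximal tubule-like cells and at 500 and 520 CPM in thick ascending limb-like cells. By CPM the higher tubule class was thus not the same for these partners, in either library. In the direct contrast of the tubule classes given below, Sdhb was lower in thick ascending limb-like cells (-0.62 ± 0.09, edgeR adjusted p = 2.98e-04). Sdha did not pass there (0.24 ± 0.10, adjusted p = 0.0595).

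Complex III, the cytochrome bc1 complex, was higher in all 8 nuclear subunits in both classes (medians of 1.63 and 1.71). Uqcrfs1, the Rieske iron-sulfur protein, stood at 118 and 119 CPM in podocyte-like and at 551 and 557 CPM in thick ascending limb-like cells, a log2 fold change of 2.20 ± 0.10 (edgeR adjusted p = 1.71e-08). In complex V all 15 tested subunits were higher in both classes, with medians of 1.64 and 1.51. The 3 genes for the membrane ring subunit went different ways in size. In thick ascending limb-like cells Atp5g3 stood at 1311 and 1264 CPM against 265 and 264 CPM in podocyte-like cells (2.26 ± 0.09), and Atp5g1 at 1726 and 1595 CPM against 399 and 381 CPM. Atp5g2 stood at 833 and 755 CPM there, and in proximal tubule-like cells its log2 fold change of 0.49 ± 0.12 was the smallest of all members called higher.

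Complex IV, cytochrome c oxidase, had the largest median in each class, 1.93 in proximal tubule-like and 1.74 in thick ascending limb-like cells, with 13 of 14 tested subunits higher in each. Cox5a stood at 316 and 316 CPM in podocyte-like and at 1607 and 1502 CPM in proximal tubule-like cells (2.56 ± 0.13, edgeR adjusted p = 2.04e-08). Cox7b (ENSMUSG00000031231, chrX:106015700-106022450, plus strand) led in thick ascending limb-like cells, at 1629 and 1687 CPM against 260 and 306 CPM (2.53 ± 0.10, adjusted p = 3.3e-09). Cox7a2l, which encodes a relative of the subunit Cox7a2, moved least of the called complex IV genes in proximal tubule-like cells. It stood there at 454 and 356 CPM against 311 and 280 CPM in podocyte-like cells (0.71 ± 0.10). With total UMIs alone its log2 fold change there was 0.03 and was not called.

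The assembly factors had lower medians than the subunit groups in both tubule classes, with log2 fold changes from -0.63 to 2.97 in proximal tubule-like cells, and the difference from the subunits was not tested. In proximal tubule-like cells 8 of 12 were higher and 1 lower, with a median of 0.87. In thick ascending limb-like cells 8 of 12 were higher, with a median of 0.54 that was the lowest of the 6 groups. Ndufaf6 (ENSMUSG00000050323, chr4:11051045-11076205, minus strand), a complex I assembly factor, had the largest log2 fold change of any nuclear member in proximal tubule-like cells, 2.97 ± 0.19 (edgeR adjusted p = 1.31e-07), at 65.5 and 76.3 CPM against 11 and 10.4 CPM. It stood at 22.2 and 23.7 CPM in thick ascending limb-like cells. Sdhaf2, which places FAD into Sdha, was the member lower in proximal tubule-like cells, at 22.1 and 26.1 CPM against 43.1 and 47.5 CPM (-0.63 ± 0.15, adjusted p = 0.00316). It rested on 25 and 42 UMIs. The smallest calls in thick ascending limb-like cells besides Ndufb4 were Ndufaf8 (0.46 ± 0.10), Sdhaf1 (0.51 ± 0.14) and Ndufaf2 (0.57 ± 0.13), all of them assembly factors.

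**Figure D3:**
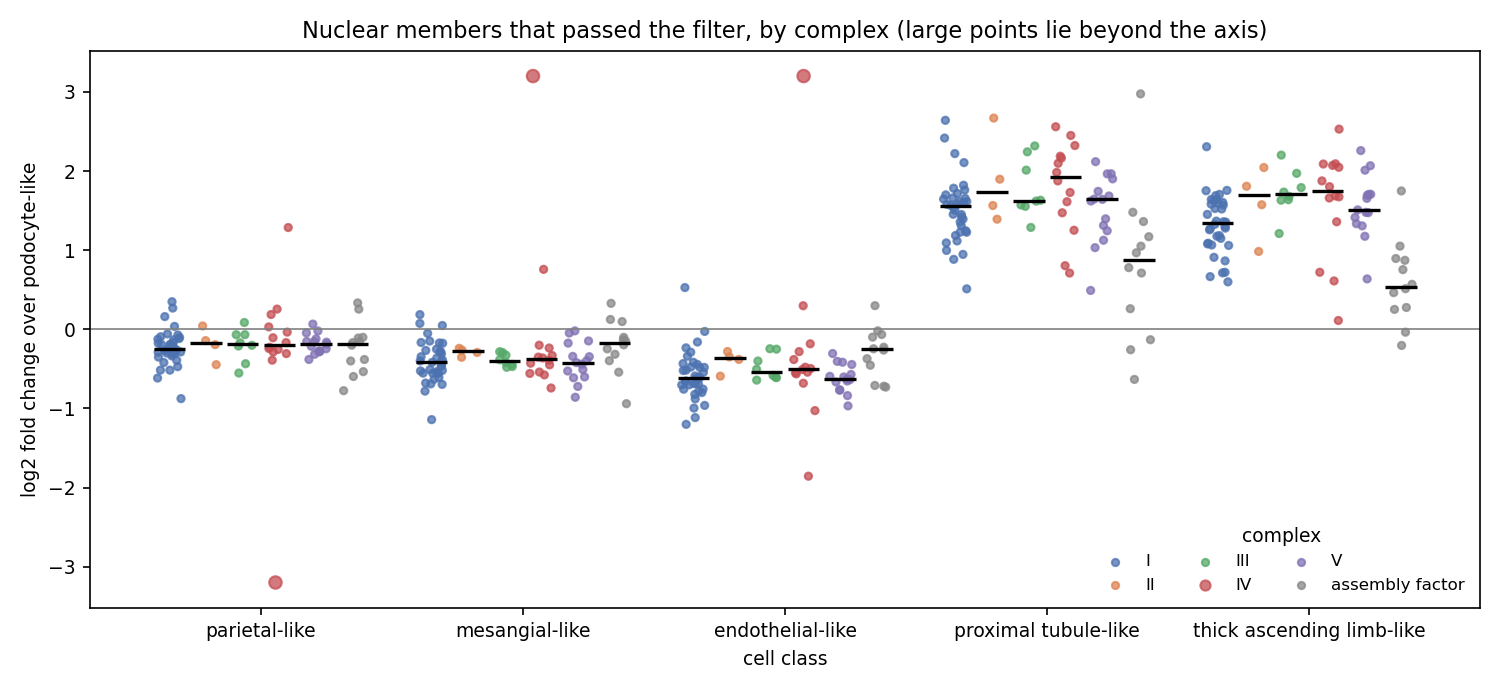
Log2 fold change of each of the 89 tested nuclear members over podocyte-like cells (1 point a gene, black bars for medians) by cell class and complex; the 3 large points, all Ndufa4l2, lie beyond the axis. Subunits of complexes I to V lie above 0 in both tubule classes, with assembly factors lower at medians of 0.87 and 0.54, and most points of the mesangial-like and endothelial-like classes lie below 0.

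In endothelial-like and mesangial-like cells most of the nuclear arm was lower than in podocyte-like cells. Endothelial-like cells had 72 of 89 members lower and 3 higher (background 28.3% lower and 28.7% higher), with a median log2 fold change of -0.55 against -0.02 over all genes. Mesangial-like cells had 58 lower and 2 higher (background 27.8% lower and 27.9% higher), with a median of -0.39 against -0.03. The higher counts of both classes include Ndufa4l2, which entered the test through its level in mesangial-like cells. Parietal-like cells had 29 lower, 3 higher and 57 that did not pass, where 22.7% of all genes were lower and 26.4% higher, and their median was -0.20 against -0.02. The parietal-like count depended on the settings: it was 16 lower and 1 higher without the library as a block, 10 lower and 7 higher with total UMIs alone, and 51 lower and 2 higher without the filter on low counts. With total UMIs alone 69.0% of all genes called in parietal-like cells were higher, against 53.8% with trimmed means.

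Ndufb4 was the lowest called complex I member in parietal-like and mesangial-like cells and came after Ndufa5 in endothelial-like cells. It stood at 271 and 287 CPM in parietal-like cells, 243 and 203 CPM in mesangial-like cells and 194 and 243 CPM in endothelial-like cells, each below the 433 and 495 CPM of podocyte-like cells. The log2 fold changes were -0.88 ± 0.13, -1.14 ± 0.13 and -1.12 ± 0.13 (edgeR adjusted p = 1.91e-04, 2.01e-05 and 2.34e-05). Ndufa5, a subunit of the matrix arm of complex I, stood in endothelial-like cells at 132 and 137 CPM against 292 and 316 CPM (-1.20 ± 0.12). In mesangial-like cells Ndufa5 stood at 200 and 177 CPM (-0.78 ± 0.11). Cox8a, a complex IV subunit and among the most abundant members, stood at 715 and 599 CPM in endothelial-like cells against 1396 and 1230 CPM (-1.03 ± 0.09, adjusted p = 1.82e-06). Atp5g1 was lower in mesangial-like cells at 254 and 207 CPM against 399 and 381 CPM (-0.86 ± 0.09).

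Among the assembly factors, Sdhaf2 (29.0 and 29.1 CPM, -0.78 ± 0.12) was among the 4 lowest calls in parietal-like cells, with Ndufs5 (301 and 297 CPM, -0.62 ± 0.10) and Sdhaf3. Sdhaf3, which helps mature Sdhb, stood at 11.3 and 12.1 CPM in parietal-like and 9.17 and 8.34 CPM in mesangial-like cells against 15.9 and 15.8 CPM in podocyte-like cells (-0.60 ± 0.18 and -0.94 ± 0.20). The parietal-like difference of Sdhaf3 was not called by DESeq2 (adjusted p = 0.093). Few members went up. Ndufa8 was higher in endothelial-like cells at 228 and 229 CPM against 153 and 159 CPM (0.53 ± 0.10, edgeR adjusted p = 0.00109), and so was Cox7a2l at 385 and 355 CPM (0.30 ± 0.10, adjusted p = 0.0292). Without the library as a block Cox7a2l was not called there (adjusted p = 0.091). Ndufb9 (416 and 365 CPM, 0.35 ± 0.09) and Ndufaf2 (48.2 and 45.5 CPM against 33.5 and 34.4 CPM, 0.33 ± 0.13) were higher in parietal-like cells. Without the block neither was called (adjusted p = 0.086 and 0.091).

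Tissue forms of complex IV subunits gave the sharpest differences between glomerular classes. Ndufa4l2 (ENSMUSG00000040280, chr10:127514967-127517154, plus strand), a paralog of the complex IV subunit Ndufa4 that is known as a hypoxia-inducible gene and a pericyte marker, stood at 418 and 357 CPM in mesangial-like cells (1050 and 556 UMIs). Podocyte-like cells were at 0.231 and 0.304 CPM (9 and 8 UMIs), and each tubule class held 1 and 0 UMIs. Parietal-like cells held 0 UMIs in either library, which allows up to 0.915 and 1.65 CPM for 3 UMIs. In mesangial-like cells Ndufa4l2 came close to its common partner Ndufa4, at 473 and 418 CPM. Endothelial-like cells stood at 26.7 CPM (62 UMIs) in the library titled female and 0.647 CPM (1 UMI) in the library titled male, a ratio of 41.3 (95% interval 7.15 to 1658), so that the level there rested on 1 library. Since the gene entered the test through the class where it is high, these levels are a description, with no test. Levels of Ndufa4 itself ranged from 418 to 562 CPM over the glomerular classes and from 1730 to 2074 CPM over the tubule classes.

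Cox4i2 (ENSMUSG00000009876, chr2:152754173-152765037, plus strand), the oxygen-responsive form of Cox4, was too low on average to be tested. It stood at 27.1 and 15.4 CPM in mesangial-like cells (68 and 24 UMIs), at 2.13 and 3.29 CPM in parietal-like cells and at 0.154 and 0.228 CPM in podocyte-like cells. Both tubule classes held 0 UMIs, which allows up to 2.65 and 1.86 CPM in proximal tubule-like and 1.95 and 1.37 CPM in thick ascending limb-like cells. Its common partner Cox4i1 outweighed it in every class, at 929 and 766 CPM in mesangial-like and 3801 and 3765 CPM in proximal tubule-like cells.

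Cox6b2 (ENSMUSG00000051811, chr7:4751792-4753094, minus strand), known as the testis form of Cox6b, was highest in parietal-like cells among the glomerular classes. It stood there at 30.5 and 28.5 CPM against 10.9 and 10.8 CPM in podocyte-like cells (1.29 ± 0.22, edgeR adjusted p = 5.78e-04), and at 19.9 and 19.9 CPM in mesangial-like cells (0.76 ± 0.25, adjusted p = 0.0251). Endothelial-like cells were lowest at 3.88 and 1.94 CPM (-1.86 ± 0.42, adjusted p = 0.00311), on 9 and 3 UMIs. In proximal tubule-like cells the libraries disagreed on Cox6b2, at 32.7 and 13 CPM. Its common partner Cox6b1 followed the rest of the arm, from 346 CPM at the lowest in endothelial-like cells to 1818 CPM at the highest in thick ascending limb-like cells.

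Muscle forms appeared in the tubule classes at low levels. Cox7a1 (ENSMUSG00000074218, chr7:30184144-30186078, plus strand), the heart and skeletal muscle form of Cox7a, stood at 14.2 and 30.4 CPM in proximal tubule-like and 21.5 and 42.9 CPM in thick ascending limb-like cells, against 4.84 and 4.63 CPM in podocyte-like cells. The library titled male was the higher one in both, with male-titled over female-titled ratios of 2.15 (95% interval 1.20 to 4.04) and 1.99 (1.33 to 3.06). Cox6a2 (ENSMUSG00000030785, chr7:128205435-128206387, minus strand), the muscle form of Cox6a, stood at 14.2 and 14.9 CPM (16 and 24 UMIs) in proximal tubule-like cells, with at most 1 UMI per library in each other class. Cox7a2 and Cox6a1, their common partners, stood at 1722 and 1621 CPM and at 1246 and 1263 CPM in proximal tubule-like cells. Cox8b, another muscle form, had 1 UMI over the 6 classes and both libraries. Cox8c and Cox7b2, known from testis, had no more than 8 and 22 UMIs in any class and library, most of them in podocyte-like cells.

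**Figure D4:**
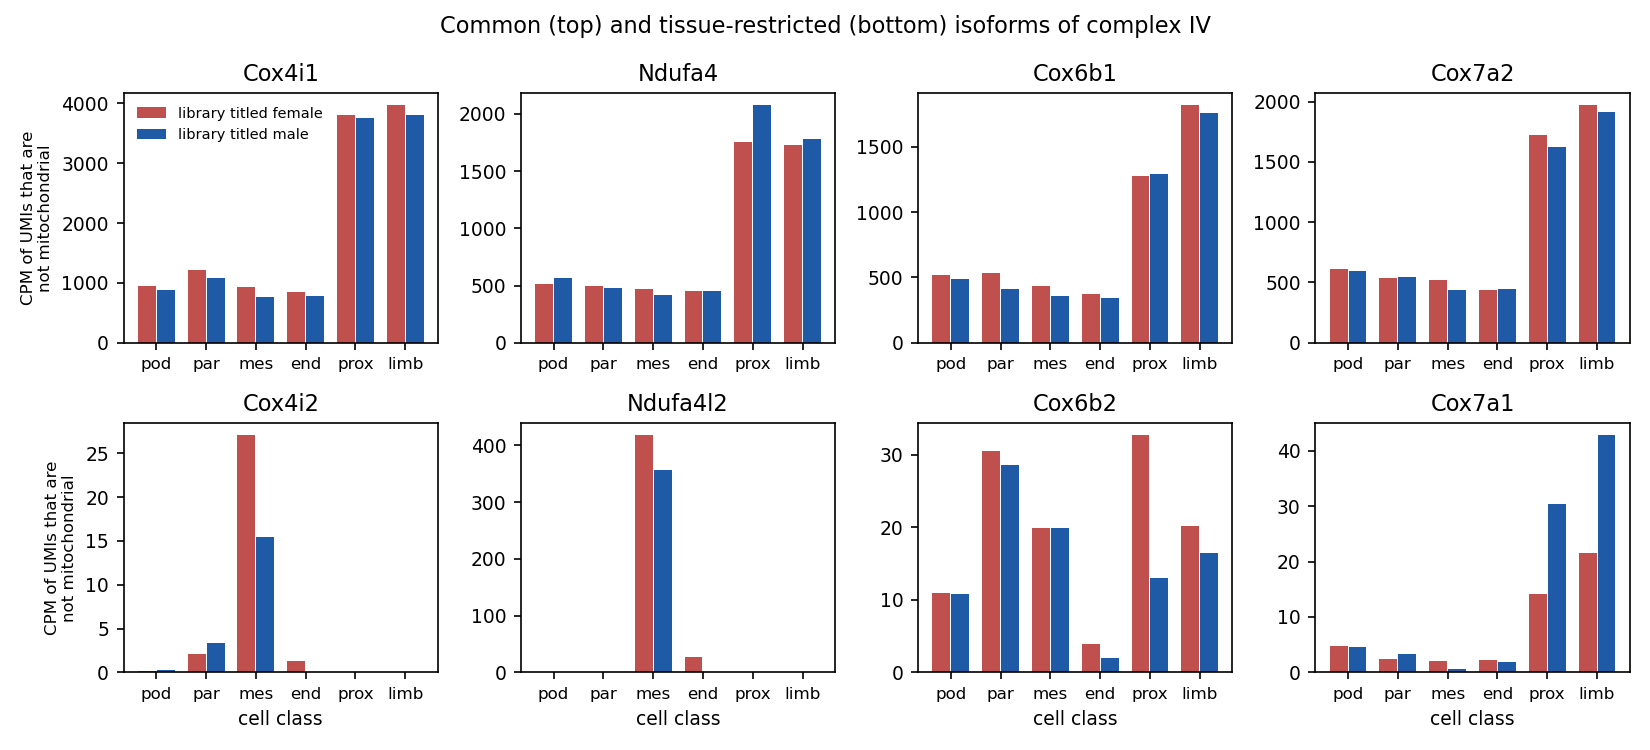
Levels (CPM of UMIs that are not mitochondrial) of 4 common complex IV genes (top) and 4 tissue-restricted relatives (bottom) in podocyte-like (pod), parietal-like (par), mesangial-like (mes), endothelial-like (end), proximal tubule-like (prox) and thick ascending limb-like (limb) cells, 1 bar a library; each panel has its own axis from 0. The common genes are highest in the tubule classes, Ndufa4l2 reaches 418 and 357 CPM in mesangial-like cells, and Cox7a1 is highest in the tubule classes at up to 42.9 CPM.

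Few mitochondrial members were called in the glomerular classes. In mesangial-like cells 4 of 13 were higher (30.8%, near the 27.9% of all genes) and 0 lower, with a median log2 fold change of 0.04. Without the library as a block 1 was higher there. Endothelial-like cells had 4 lower (30.8%, near the 28.3% of all genes) and 1 higher, with a median of -0.07, and parietal-like cells had 1 higher and 0 lower (median -0.00). With cells assigned by a marker gate on each cell in place of clusters, the mesangial-like counts turned to 1 higher and 3 lower and the endothelial-like count of lower members to 7. In the tubule classes the smallest of the 13 log2 fold changes was 2.62.

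Mt-Nd6, the subunit of complex I encoded on the strand opposite to the other 12 genes (chrM:13552-14070, minus strand), was called higher in all 3 glomerular comparisons. It stood at 0.00271% and 0.00383% of all UMIs in podocyte-like cells, 0.00388% and 0.00630% in parietal-like cells, 0.00520% and 0.00627% in mesangial-like cells and 0.00387% and 0.00534% in endothelial-like cells. The log2 fold changes were 0.48 ± 0.12, 0.74 ± 0.12 and 0.46 ± 0.12 (edgeR adjusted p = 0.00622, 3.08e-04 and 0.00793). The library titled male was higher in each class, and every value of these 3 classes lay above both podocyte-like values, the closest by a small margin. Without the library as a block none of the 3 was called (adjusted p = 0.22, 0.067 and 0.25). No source used here states whether counting used the strand, and without it reads of mt-Nd6 and of precursors from the other strand cannot be told apart. Mt-Atp8 with mt-Atp6 and mt-Nd4l with mt-Nd4 are pairs that overlap on the same strand. Knowing the strand would not tell reads of their shared bases apart.

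Mt-Cytb, the mitochondrial subunit of complex III, was lower in endothelial-like cells at 0.413% and 0.427% against 0.599% and 0.563% (-0.50 ± 0.10, edgeR adjusted p = 0.00146). Mt-Nd4 was lower as well, at 0.248% and 0.281% against 0.359% and 0.349% (-0.45 ± 0.10), with mt-Nd2 (-0.36 ± 0.13) and mt-Nd5 (-0.31 ± 0.12). In mesangial-like cells mt-Nd1 stood at 0.282% and 0.231% against 0.196% and 0.191% (0.31 ± 0.11), mt-Nd3 at 0.0807% and 0.0835% against 0.0547% and 0.0661% (0.36 ± 0.12), and mt-Atp8 at 0.0103% and 0.0103% against 0.00633% and 0.00881% (0.39 ± 0.15). Without the block mt-Nd3 and mt-Atp8 were not called there (adjusted p = 0.12 and 0.19).

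The tubule classes differed in which transcripts made up the mitochondrial arm. The 7 complex I transcripts made up 10.0% and 11% of all UMIs in proximal tubule-like cells and 6.06% and 5.85% in thick ascending limb-like cells. The 3 complex IV transcripts summed to 10.3% and 10.7% and to 13.1% and 13.6%, with mt-Co2 lower and mt-Co1 and mt-Co3 higher in thick ascending limb-like cells on this scale. Mt-Nd1 (ENSMUSG00000064341, chrM:2751-3707, plus strand) stood at 2.67% and 2.84% in proximal tubule-like and 1.02% and 1.01% in thick ascending limb-like cells, and mt-Nd2 at 3.2% and 3.60% and at 1.61% and 1.51%. Mt-Co1, the catalytic subunit of complex IV, stood at 2.61% and 2.7% and at 4.37% and 4.75%. Mt-Co2 (3.69% and 4.07% against 3.55% and 3.49%) and mt-Co3 (3.96% and 3.98% against 5.18% and 5.31%) are the other subunits of its core.

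Tested directly in a contrast chosen after these values were seen, 10 of the 13 mitochondrial members were lower and 1 higher in thick ascending limb-like than in proximal tubule-like cells, where 23% of all genes were lower and 23.7% higher. Mt-Nd1 had a log2 fold change of -1.76 ± 0.11 (edgeR adjusted p = 3.73e-07), mt-Nd6 of -1.57 ± 0.11 and mt-Nd2 of -1.44 ± 0.13. Next came mt-Nd3 at -1.11 ± 0.12, mt-Nd5 at -1.04 ± 0.12 and mt-Nd4l at -0.82 ± 0.13. Mt-Co1 was the member that was higher, at 0.46 ± 0.09 (adjusted p = 0.00131). Mt-Co3 (0.08 ± 0.10, adjusted p = 0.505) and mt-Cytb (-0.23 ± 0.10, adjusted p = 0.0891) did not pass, and mt-Atp8 (-0.61 ± 0.14), mt-Co2 (-0.46 ± 0.11), mt-Nd4 (-0.44 ± 0.10) and mt-Atp6 (-0.28 ± 0.10) were lower. With total UMIs alone 6 were lower and 2 higher, and mt-Atp6 turned to 0.04 (adjusted p = 0.741). For the nuclear arm this contrast gave 28 lower and 7 higher with trimmed means and 5 lower and 40 higher with total UMIs alone, so that its direction depended on the scaling. The nuclear median was -0.10 and 0.22 under these, and 7 of the 35 called nuclear members turned their sign, none of them called in both directions. Of all genes called in this contrast, 50.8% were higher with trimmed means and 71.8% with total UMIs alone.

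**Figure D5:**
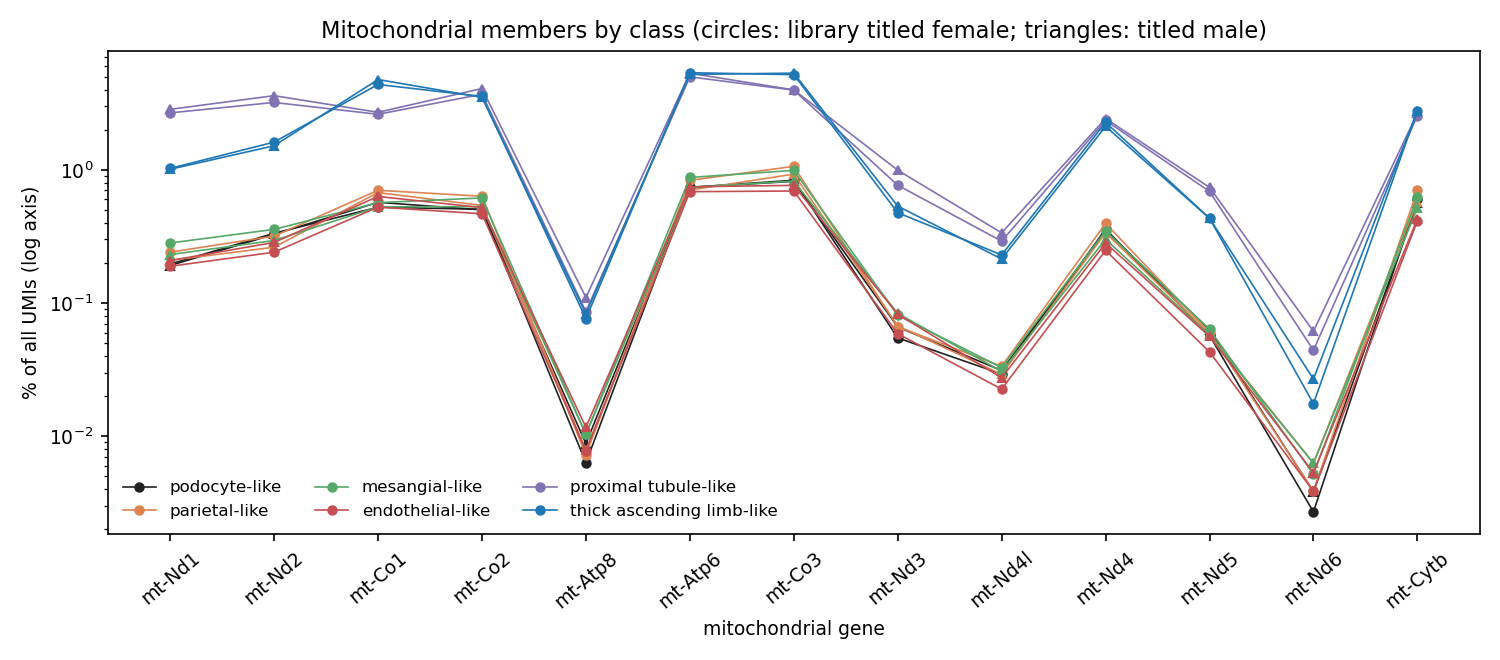
Level of each of the 13 mitochondrial members (percent of all UMIs, log axis) in gene order along the mitochondrial genome, with 1 line for each cell class and library. All 13 lie higher in the tubule classes, which part from each other at mt-Nd1 (2.67% and 2.84% against 1.02% and 1.01%) and at mt-Nd6 (0.0442% and 0.0614% against 0.0176% and 0.0269%).

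Each title had 1 library, so the difference between the titled sexes has no replicate check, and it is given as a ratio with an exact conditional binomial interval that covers counting error only. A ratio of 1.5 or more in either direction, at 30 UMIs or more over both libraries, was the mark used. Among podocyte-like cells 1 of 91 nuclear members passed it, Cox7b2 at 0.436 and 0.836 CPM (17 and 22 UMIs, interval 0.260 to 1.03), where 2.88% of all genes were higher and 2.73% lower in the library titled female. No mitochondrial member passed it there. In mesangial-like cells 2 of 91 were higher and 1 lower in the library titled female (background 7.83% and 6.08%). These were Cox4i2 (a ratio of 1.76, 1.09 to 2.93), Sdhaf4 (34.7 and 22.5 CPM, 1.54, 1.03 to 2.36) and Ndufaf6 (6.78 and 12.8 CPM, 0.528, 0.260 to 1.06).

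In thick ascending limb-like cells Ndufaf3, a complex I assembly factor, stood at 69.7 and 43.3 CPM (1.61, 1.21 to 2.14), with 5.16% of all genes higher and 5.69% lower, and Cox7a1 was the lower nuclear member. Mt-Nd6 was lower in the library titled female there (0.653, 0.576 to 0.739) and in parietal-like cells (0.616, 0.478 to 0.795), where the background was 5.57% higher and 4.65% lower and no nuclear member passed. In proximal tubule-like cells Cox6b2 was higher (2.51, 1.43 to 4.52) and Cox7a1 lower, with a background of 10.5% and 8.08%. In endothelial-like cells (background 6.92% and 5.76%) Ndufa4l2 was higher, while Ndufaf5 (5.60 and 12.3 CPM, 0.456, 0.207 to 0.973), Ndufaf6 (8.19 and 13.6 CPM, 0.603, 0.307 to 1.18) and mt-Atp8 (0.666, 0.541 to 0.820) were lower. All 13 mitochondrial members were lower in the library titled female in endothelial-like cells (median log2 ratio -0.24) and in proximal tubule-like cells (-0.10). Of all genes, 51.6% in endothelial-like and 55.3% in proximal tubule-like cells were above a ratio of 1. The median endothelial-like cell held 3.39% and 3.40% of its UMIs in the mitochondrial arm, against 3.60% and 4.04% in the sums. In the library titled male 2 endothelial-like cells had 20% to 40% mitochondrial UMIs, and their part was not tested. In mesangial-like cells 10 of 13 mitochondrial members were above a ratio of 1 (median 0.21), and so were 72 of 91 nuclear members (79.1%, median 0.18), against 52% of all genes (median 0.01). In parietal-like cells it was 10 of 13 (median 0.20) and 69 of 89 nuclear members (77.5%, median 0.10), against 50.4% of all genes (median 0.00).

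Of the pathways that feed the chain, each count below is read against the share of all genes called. That share was 26.4% higher and 22.7% lower in parietal-like, 27.9% and 27.8% in mesangial-like, 28.7% and 28.3% in endothelial-like, 32% and 33.5% in proximal tubule-like and 30.6% and 29.9% in thick ascending limb-like cells. Pcx, Pdk1, Sco2, Gabpb1, Ppargc1a and Esrrg lay under 10 CPM in podocyte-like cells and entered the test through other classes, so that their values are a description. The counts of the lists below include these genes. Of the citrate cycle and pyruvate entry genes, 21 of 21 tested were higher in proximal tubule-like and 20 of 21 in thick ascending limb-like cells, with medians of 1.51 and 1.61. Pcx, which makes oxaloacetate from pyruvate, was the largest in proximal tubule-like cells (125 and 125 CPM against 2.85 and 3.91 CPM, 5.47 ± 0.24), followed by the pyruvate carrier subunit Mpc2 (2.39 ± 0.11). Idh2 moved least there (0.57 ± 0.15). Idh2, which encodes mitochondrial isocitrate dehydrogenase, led in thick ascending limb-like cells instead (777 and 864 CPM against 193 and 167 CPM, 2.17 ± 0.15), followed by Idh3a (2.06 ± 0.13). In endothelial-like cells 15 of 21 were lower (71.4%) and 0 higher, led by Mpc1 (-1.32 ± 0.12) and Suclg1 (-1.31 ± 0.13). In mesangial-like cells 11 were lower (52.4%) and 2 higher. In parietal-like cells 5 were lower (23.8%, near the background) and 2 higher.

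Of the fatty acid oxidation genes, 14 of 15 tested were higher in proximal tubule-like cells (median 1.38), led by Hadh (2.81 ± 0.12) and the medium-chain dehydrogenase Acadm (827 and 928 CPM against 162 and 165 CPM, 2.69 ± 0.13). In thick ascending limb-like cells 13 were higher and 1 lower. Cpt1a, which controls entry of long-chain fatty acids, led (2.55 ± 0.18), and Eci2 was lower (-1.28 ± 0.13). Eci2 and Cpt2 were the lowest calls in all 3 other classes: parietal-like (-0.91 ± 0.12 and -1.0 ± 0.14), mesangial-like (-1.63 ± 0.13 and -1.50 ± 0.17) and endothelial-like (-1.56 ± 0.13 and -1.13 ± 0.16). Acaa2 was the highest in each of those (0.99 ± 0.13, 1.65 ± 0.12 and 1.27 ± 0.13). The list counted 7 lower (46.7%) and 2 higher in parietal-like and 10 lower (66.7%) and 2 higher in endothelial-like cells. In mesangial-like cells it counted 4 lower (26.7%, near the background) and 3 higher (20%, below it).

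Genes of the glycolysis list, which also held Pdk1 and Bnip3, were mostly higher in both tubule classes. Of 17 tested genes, all 17 were higher in thick ascending limb-like cells, led by Ldhb (2336 and 2187 CPM against 30.3 and 31.3 CPM, 6.17 ± 0.23) and Pdk1 (4.89 ± 0.22). In proximal tubule-like cells 13 were higher, led by Ldhb (5.17 ± 0.22) and Pfkp (3.13 ± 0.12), and 2 lower. Those were hexokinase Hk1 (1.77 and 3.10 CPM against 30.0 and 28.8 CPM, -3.25 ± 0.29) and pyruvate kinase Pkm (-2.13 ± 0.15). Parietal-like cells had 10 of 17 higher and 0 lower, 58.8% against the background of 26.4%, from Ldhb (327 and 252 CPM, 3.09 ± 0.21) and Pdk1 (2.33 ± 0.29) to Tpi1 (0.49 ± 0.13). Mesangial-like cells had 5 higher, 29.4% and near the background (Pfkm 1.54 ± 0.15, Hk1 1.40 ± 0.12) and 3 lower (Bnip3 -1.37 ± 0.25, Pkm -0.74 ± 0.13). Endothelial-like cells had 6 higher, 35.3% against 28.7% (Pdk1 2.38 ± 0.33, Ldha 1.33 ± 0.12), and 5 lower, 29.4% and near the background (Pfkm -0.89 ± 0.24 and an entry of Aldoa, -0.88 ± 0.10).

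The list of mitochondrial biogenesis and genome upkeep, which also held Hif1a and Epas1, gave 12 higher and 2 lower of 19 tested in proximal tubule-like cells (63.2% and 10.5%). It gave, in thick ascending limb-like cells, 7 higher (36.8%, not far above the background of 30.6%) and 2 lower. Ppargc1a, a coactivator of mitochondrial genes, stood at 7.72 and 6.42 CPM in podocyte-like cells, 50.4 and 81.2 CPM in proximal tubule-like cells and 409 and 400 CPM in thick ascending limb-like cells. Esrrg, a receptor of the estrogen-related family, stood at 0.820 and 1.40 CPM, 17.7 and 22.9 CPM and 50.2 and 75.3 CPM in the same classes. Thick ascending limb-like cells were the higher of the tubule classes for both genes and in both libraries. Nrf1, whose product binds the palindrome shown in the promoters, was lower in both (-0.89 ± 0.30 and -0.66 ± 0.24), and so was Epas1 (-0.72 ± 0.21 and -1.68 ± 0.22).

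In parietal-like cells 5 of the list were higher (26.3%, at the background) and 2 lower (Esrra -0.61 ± 0.15, Epas1 -0.47 ± 0.17). Epas1, which encodes the hypoxia-inducible factor 2 alpha, stood at 1285 and 1568 CPM in mesangial-like and 1014 and 1038 CPM in endothelial-like cells against 31.9 and 33.4 CPM in podocyte-like cells (5.35 ± 0.17 and 4.95 ± 0.16). Mesangial-like cells had 6 of the list higher (31.6%) and 4 lower, among them Tfb2m (-0.69 ± 0.24). Endothelial-like cells had 7 higher (36.8%), Polg2 (1.31 ± 0.18) next after Epas1, and 5 lower, among them Ssbp1 (-0.86 ± 0.11). These shares compare with 27.9% and 28.7% of all genes.

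Electron carriers and uncoupling genes were mixed: 13 higher and 4 lower of 19 tested in proximal tubule-like and 10 and 4 in thick ascending limb-like cells. Etfa, which passes electrons from fatty acid oxidation (2.61 ± 0.12), and the coenzyme Q gene Coq9 (2.39 ± 0.12) led in the first, and the ADP/ATP carrier Slc25a5 (1766 and 1906 CPM against 293 and 312 CPM, 2.58 ± 0.10) and Coq9 (2.31 ± 0.11) in the second. Ucp2 (-1.31 ± 0.24) and Coq10b (-0.97 ± 0.13) were lowest in proximal tubule-like cells and Coq10b (-1.02 ± 0.13) and Gpd2 (-0.97 ± 0.13) in thick ascending limb-like cells. The glomerular classes had 6, 7 and 10 lower (31.6%, 36.8% and 52.6% in parietal-like, mesangial-like and endothelial-like, against 22.7%, 27.8% and 28.3% of all genes) and 1 higher each. The higher genes were Slc25a4 in the first 2 (0.59 ± 0.09 and 0.51 ± 0.09) and Uqcc2 in the third (0.27 ± 0.10).

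Assembly factors under other symbols had medians of 0.71 in proximal tubule-like (16 of 26 higher, 0 lower) and 0.56 in thick ascending limb-like cells (17 higher, 1 lower). Sco2, a copper chaperone of complex IV, led in both (34.5 and 27.3 CPM and 47.6 and 37.9 CPM against 6.15 and 6.76 CPM, 2.51 ± 0.23 and 2.69 ± 0.19). Coa6 (2.05 ± 0.12) was next in the first and Cox11 (1.28 ± 0.13) in the second. The glomerular classes had 7, 11 and 9 lower (26.9%, 42.3% and 34.6%, against 22.7%, 27.8% and 28.3% of all genes) and 0, 0 and 1 higher, the last being Sco2 in endothelial-like cells (1.0 ± 0.25). Cox17, another copper chaperone, was among the lowest calls in all 3 (-0.78 ± 0.12, -1.20 ± 0.13 and -0.84 ± 0.12). Tmem126b, a complex I factor, was called in all 3 too (-1.01 ± 0.16, -0.54 ± 0.15 and -0.85 ± 0.17).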

How the data were processed

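Glomerular cells of 2 mice were profiled by 10x 3' single-cell RNA sequencing, with 1 library each. The deposited values are raw counts, whole UMIs per gene and barcode. Cell Ranger 6.1.2, STAR 2.7.5a and the build mm10 are named in the submitters' processing notes without their roles, with the gene annotation and strand of counting not given in the sources used here. Coordinates come from GENCODE M21 (GRCm38). Groups follow the sample titles, against which sex-linked transcripts and the file names went.

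Barcodes with under 500 genes (112 in the library titled female, 145 in the library titled male) or over 60% mitochondrial UMIs (135 and 226) were left out. Counts were scaled to 10000 UMIs and log transformed. Then 30 principal components of 2000 variable genes, without members, ribosomal protein, reporter and sex-linked genes, gave 17 Leiden clusters (scanpy 1.11.5, leidenalg 0.10.2, 20 neighbours, resolution 1.0). A cluster took the name of its best of 14 marker lists where 3 or more markers counted and its top 10 genes did not hold more markers of another type. A marker counted when it was in over 20% of the cells, at 50 CPM or more. It also had to exceed 2 times the lower quartile of its CPM over all clusters, so 1 marker could count in several clusters. Differences from named types elsewhere may come from these rebuilt names. Scrublet called 1 doublet in each library, so it has not worked, and doublets remain.

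UMIs were summed per class and library and fitted with edgeR 4.0.16 (R 4.3.3; trimmed mean normalization, quasi-likelihood test, 9211 genes at a mean of 10 CPM or more, 5 residual degrees of freedom). The library was a block, since the classes of a library come from the same animal. In simulated counts with 2-fold changes, 92.9% were recovered for thick ascending limb-like cells (9168 genes) and 95% for parietal-like cells (9161 genes), and 100% of 4-fold changes in each. The simulated classes shared a common mean profile, and few genes were changed in a single class. The real classes differ in far more genes and, for the tubule classes, in mitochondrial share. These rates therefore do not cover the effect of scaling on the real calls. Shares and ratios have exact 95% intervals that cover counting error only. Podocyte-like values rested on 40739240 and 27492436 UMIs, and proximal tubule-like ones on 1566893 and 2296515.

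Members and gene lists were chosen with earlier results of these data known. The genes named are the 13 mitochondrial members, the 4 highest and 4 lowest called nuclear members per comparison, the complex IV tissue forms and partners, genes among the 2 highest and 2 lowest calls of each pathway list, and up to 5 members 1.5-fold apart between libraries per class. Sdha, Malat1 and the thick ascending limb-like level of Atp5g1 were added after their values were seen. Alternatives varied the normalization, the tool (DESeq2 1.42.0), the filters, the block, the mitochondrial limit and the way cells were classed. Those at resolution 2.0, with unnamed podocyte-marker clusters added to the podocyte-like class and without the 5% highest doublet scores were chosen after seeing the data, as was the contrast between the tubule classes.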

Additional observations from a re-analysis of the deposited data

Results flagged for a closer look

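3 mitochondrial members moved in opposite directions in the 2 libraries when a glomerular class was set against podocyte-like cells of the same library. The differences between the libraries were not tested, since each direction rests on 1 animal. For mt-Nd3 in parietal-like cells the log2 ratio was 0.13 in the library titled female and -0.13 in the library titled male. For mt-Atp6 in mesangial-like cells it was 0.15 and -0.10. For mt-Co3 in mesangial-like cells it was 0.15 and -0.10. None of the 3 was called in its comparison by edgeR's quasi-likelihood test. These ratios are on the trimmed mean scale and were taken up where both libraries reached 0.1 in size. In percent of all UMIs none of the 3 turned: mt-Nd3 stood at 0.0664% and 0.0673% in parietal-like against 0.0547% and 0.0661% in podocyte-like cells. In mesangial-like against podocyte-like cells mt-Atp6 stood at 0.875% and 0.737% against 0.738% and 0.736%, and mt-Co3 at 0.989% and 0.822% against 0.834% and 0.819%.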

How the results depend on the processing

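In the comparisons with podocyte-like cells, no called gene that was followed and no nuclear median changed its direction over the alternatives. The mitochondrial medians near 0 in the parietal-like and mesangial-like classes changed sign under some, and between the tubule classes the nuclear counts, the nuclear median (from -0.10 to 0.22), 7 called nuclear members and mt-Atp6 turned with total UMIs alone. Of the values of single genes under an alternative, 1532 kept their side of the threshold, 68 lost it and 56 gained it, and of the counts, medians and shares 383 stayed within 1.5 times the count or 1 SD between libraries and 122 did not. The higher level of both arms in the tubule classes held under every alternative that was run. The causes of the changes below were not tested, apart from those that follow from the setting itself. Medians are log2 fold changes over podocyte-like cells, numbers are of members called by the named test, shares are percent of UMIs, and class names are shortened. With DESeq2 in place of edgeR, the nuclear median was -0.51 (endothelial), 1.69 (proximal) and 1.53 (limb) and the mitochondrial median was 3.24 (limb). Higher nuclear members numbered 3 (limb over proximal) and lower mitochondrial members numbered 2 (endothelial). With size factors as in DESeq2, the nuclear median was -0.52 (endothelial), 1.69 (proximal) and 1.53 (limb) and the mitochondrial median was 3.24 (limb). Higher nuclear members numbered 5 (parietal), 4 (mesangial) and 3 (limb over proximal). With a mitochondrial limit of 20%, the nuclear median was 1.22 (proximal) and 1.04 (limb) and the mitochondrial median was 2.80 (proximal) and 1.98 (limb). Higher nuclear members numbered 1 (limb over proximal) and lower nuclear members numbered 2 (proximal) and 17 (limb over proximal). Lower mitochondrial members numbered 1 (parietal) and the mitochondrial share was 4.08% (podocyte), 15.2% (proximal) and 14.3% (limb). The nuclear share was 5.75% (proximal) and 5.95% (limb). Without a filter on low counts, the nuclear median was -0.34 (parietal), -0.51 (mesangial), -0.70 (endothelial), 1.33 (proximal) and 1.22 (limb) and the mitochondrial median was -0.20 (endothelial), 3.82 (proximal) and 2.97 (limb). Lower nuclear members numbered 51 (parietal), 2 (proximal) and 1 (limb) and higher mitochondrial members numbered 0 (parietal) and 0 (endothelial). Lower mitochondrial members numbered 4 (parietal), 4 (mesangial) and 8 (endothelial). Without the library as a replicate block, higher nuclear members numbered 1 (parietal) and 3 (limb over proximal) and lower nuclear members numbered 16 (parietal). Higher mitochondrial members numbered 0 (parietal), 1 (mesangial) and 0 (endothelial). With the nuclear arm over all UMIs, the nuclear share was 2.42% (podocyte), 4.78% (proximal) and 5.5% (limb). With a marker gate on each cell, the nuclear median was -0.67 (endothelial), 1.64 (proximal) and 1.53 (limb) and the mitochondrial median was -0.23 (endothelial). Higher nuclear members numbered 6 (parietal) and higher mitochondrial members numbered 2 (parietal) and 1 (mesangial). Lower mitochondrial members numbered 2 (parietal), 3 (mesangial) and 7 (endothelial) and the mitochondrial share was 4.71% (podocyte), 5.32% (parietal) and 29.2% (limb). The nuclear share was 2.61% (podocyte), 2.61% (parietal), 1.66% (endothelial), 7.14% (proximal) and 8.11% (limb). With the unnamed podocyte-marker clusters added, the nuclear median was -0.58 (endothelial) and 1.45 (limb) and lower mitochondrial members numbered 1 (parietal) and 1 (mesangial). The mitochondrial share was 4.37% (podocyte) and the nuclear share was 2.57% (podocyte). At resolution 0.5, the nuclear median was 1.48 (limb) and the mitochondrial share was 4.18% (podocyte). The nuclear share was 2.5% (podocyte) and 6.79% (proximal). At resolution 2.0, the nuclear median was -0.57 (endothelial), 1.54 (proximal) and 1.47 (limb) and higher nuclear members numbered 6 (parietal). Higher mitochondrial members numbered 3 (parietal) and lower mitochondrial members numbered 1 (parietal). The mitochondrial share was 4.33% (podocyte), 5.46% (parietal) and 27.7% (limb) and the nuclear share was 2.56% (podocyte), 6.7% (proximal) and 7.71% (limb). With total UMIs alone, the nuclear median was -0.053 (parietal), -0.51 (endothelial), 0.88 (proximal) and 1.11 (limb) and the mitochondrial median was 0.14 (parietal), 3.37 (proximal) and 2.82 (limb). Higher nuclear members numbered 7 (parietal), 4 (mesangial) and 40 (limb over proximal) and lower nuclear members numbered 10 (parietal), 4 (proximal), 2 (limb) and 5 (limb over proximal). Higher mitochondrial members numbered 3 (parietal), 2 (endothelial) and 2 (limb over proximal) and lower mitochondrial members numbered 6 (limb over proximal). Without mitochondrial genes in the fit, the nuclear median was 1.46 (limb). Without the 5% highest doublet scores, the nuclear median was -0.58 (endothelial) and 1.51 (limb) and lower mitochondrial members numbered 1 (parietal) and 1 (mesangial). The mitochondrial share was 4.24% (podocyte) and 27.8% (limb) and the nuclear share was 7.84% (limb). Without either library in turn, values with no test gave medians from -0.28 to -0.18 (nuclear median, parietal), from 1.53 to 1.57 (nuclear median, proximal), from 1.46 to 1.46 (nuclear median, limb) and from 3.15 to 3.18 (mitochondrial median, limb). Without a filter on low counts the median of all genes was -0.26 (proximal) and -0.16 (limb), and the nuclear medians relative to it were 1.59 and 1.38. At resolution 0.5 no cluster took the parietal name, so that setting gives no parietal value. The parietal-like class held 75 and 54 cells at resolution 2.0 and 59 and 41 with the marker gate, against 180 and 123 in the main setting. The library pairs the classes because they come from the same animal, and the genes whose call was lost without it are given with their adjusted p beside each. Proximal tubule-like values rested on the fewest cells of the 6 classes, 40 and 74, and members that averaged below 10 CPM were not tested.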
